A study of Mus musculus with 3 samples.

Results

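Cells decide between survival and death largely through the BCL2 family, and the transcripts of 10 of its genes were followed here in single-cell RNA libraries of mouse CD4+ T cells. The genes were chosen by symbol from the 31053 genes of the feature table and were all found there: *Bcl2*, *Bcl2l1*, *Mcl1*, *Bcl2a1b*, *Bcl2a1d*, *Bcl2l11*, *Bbc3*, *Pmaip1*, *Bax* and *Bak1*. Their counts were taken in cells with more than 200 detected genes and under 15% mitochondrial transcripts. Splenic T cells, enriched for naive CD4+ cells and sorted as 7AAD-CD3+CD4+, came from male C57BL/6 mice of 5 to 10 weeks. Every mouse carried floxed *Ift20*, a gene for a transport protein of the intraflagellar machinery. WT cells were *Ift20* f/f without Cre, and IFT20-KO cells were *Ift20* f/f with Cre driven by the *Cd4* promoter, which is active from a stage of thymic development onward. The 3 libraries held unstimulated WT cells kept in DPBS, and WT and IFT20-KO cells after 24 h of culture with antibodies to CD3 and CD28, each at 1 μg/mL, which engage the T cell receptor and its costimulatory receptor. There was 1 library per condition and the number of mice behind each was not given in the sources used here, so values stand without replicates and conditions were not tested against each other.

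The family works through binding partners at the mitochondrial outer membrane. The antiapoptotic members BCL2, BCL-XL (from *Bcl2l1*), MCL1 and A1 (from the *Bcl2a1* genes) hold the pore-forming effectors BAX and BAK in check. The BH3-only proteins BIM (*Bcl2l11*), PUMA (*Bbc3*) and NOXA (*Pmaip1*) bind the antiapoptotic members and release or activate the effectors, after which cytochrome c leaves the mitochondria and caspases are activated. Naive T cells are known to depend on BCL2 maintained by interleukin-7, and activated T cells are known to gain BCL-XL through costimulation.

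The filter kept 8031 unstimulated WT cells, 9903 stimulated WT cells and 13920 stimulated IFT20-KO cells, with 37133949, 116979076 and 106435143 UMIs, the molecular tags that mark single captured RNA molecules. Levels are given in CPM, the count of a gene in every 1000000 UMIs of its library, with exact Poisson intervals at the 95% level that cover counting error only. *Ift20* itself was at 64.4 and 76.0 CPM in unstimulated and stimulated WT and at 6.60 CPM in IFT20-KO, as the labels say. UMIs of 5 T cell markers were found in 98.4% or more of the cells of each library. B, NK, erythroid and myeloid markers were near 0 but for *Cst3*, and 2 CD8 T cell markers summed to 28.7, 9.16 and 11.5 CPM. Nearly all of that sum was *Cd8b1*, while *Cd8a* was at 0.16, 0.12 and 0.29 CPM. The median cell held 4627 UMIs without stimulation, 12167 in stimulated WT and 5014.5 in stimulated IFT20-KO, and cells with few UMIs and a high mitochondrial share formed a different fraction of each library, which is described with the levels they touch. The libraries shared 114 to 197 barcodes pairwise, at most 2% of either library.

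Sequence sets the limits of what can be counted for *Bcl2a1b* and *Bcl2a1d*, so their coding starts are shown first. Both genes lie on mouse chromosome 9 (GRCm38, GENCODE M21), *Bcl2a1b* at chr9:89199209-89207827 on the plus strand and *Bcl2a1d* at chr9:88723285-88731914 on the minus strand. Their coding sequences of 516 bases differed at 6 bases and were 98.8% identical. The first 120 coding bases are printed 5′ to 3′, with the 3 bases that differ in capitals, which are G4T, T48C and A94C counted from the A of the start codon, *Bcl2a1b* first.
Bcl2a1b: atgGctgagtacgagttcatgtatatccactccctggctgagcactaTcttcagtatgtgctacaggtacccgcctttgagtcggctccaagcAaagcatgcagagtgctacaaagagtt
Bcl2a1d: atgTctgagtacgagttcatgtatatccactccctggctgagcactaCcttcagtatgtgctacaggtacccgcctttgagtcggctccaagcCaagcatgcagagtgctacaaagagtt
Of all 90-base windows of their annotated transcripts, 61.5% (*Bcl2a1b*) and 61.6% (*Bcl2a1d*) occurred unchanged in a transcript of another gene, mainly each other, *Bcl2a1a* or *Gm29094*. No such window was found for *Bcl2*, *Bcl2l1*, *Mcl1*, *Bcl2l11*, *Bbc3*, *Pmaip1* or *Bak1*, and 5.9% were shared for *Bax*, with *Gm45808*. Reads from shared stretches do not tell the copies apart, and how they were counted was not examined here. The counts of the A1 genes may therefore be too low or mixed between copies.

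The stretches before the start sites are shown for the 4 genes with the highest log2 ratios for stimulation, and for *Bcl2l11*, a known target of forkhead factors. RefSeq promoters (GRCm38.p6) were given for 9 of the 10 genes, with 14 start sites in all. Each was searched on both strands, over 300 bases around the start, for the letters of 8 common motifs, which are in capitals below. The motifs, and the share of 32851 promoters of the same length that held each, were a forkhead motif GTAAACA (3.65%), a kappaB motif GGANTTTCC (412 promoters), an AP-1 motif TGANTCA (7.81%), a cyclic AMP response motif TGACGTCA (1.79%), a STAT motif TTCNNNGAA (8.30%), an E-box CACGTG (7.15%), a TATA motif TATAAA (13.6%) and an NFAT core GGAAAA (23.4%). The 250 bases before the start are printed 5′ to 3′ in the direction of transcription, for *Bcl2a1b* (chr9:89199023-89199272, plus strand), *Bcl2a1d* (chr9:88731851-88732100, minus strand), the middle of 3 starts of *Bcl2l1* (chr2:152830718-152830967, minus strand), *Bax* (chr7:45466899-45467148, minus strand) and the upstream start of *Bcl2l11* (chr2:128125788-128126037, plus strand).
Bcl2a1b: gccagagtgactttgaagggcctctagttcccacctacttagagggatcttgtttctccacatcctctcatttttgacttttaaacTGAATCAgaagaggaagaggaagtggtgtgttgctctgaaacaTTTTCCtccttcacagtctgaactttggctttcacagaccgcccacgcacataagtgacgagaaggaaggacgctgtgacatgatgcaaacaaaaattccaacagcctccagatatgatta
Bcl2a1d: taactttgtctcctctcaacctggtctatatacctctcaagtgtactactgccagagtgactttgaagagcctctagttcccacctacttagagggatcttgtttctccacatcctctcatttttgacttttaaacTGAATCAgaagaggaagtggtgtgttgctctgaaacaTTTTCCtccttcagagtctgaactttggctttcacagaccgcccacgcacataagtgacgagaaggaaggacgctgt
Bcl2l1: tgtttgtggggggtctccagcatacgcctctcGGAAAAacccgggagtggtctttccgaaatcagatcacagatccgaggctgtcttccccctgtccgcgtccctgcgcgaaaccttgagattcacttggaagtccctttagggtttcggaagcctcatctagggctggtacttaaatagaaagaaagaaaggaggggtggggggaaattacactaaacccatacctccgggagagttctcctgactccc
Bax: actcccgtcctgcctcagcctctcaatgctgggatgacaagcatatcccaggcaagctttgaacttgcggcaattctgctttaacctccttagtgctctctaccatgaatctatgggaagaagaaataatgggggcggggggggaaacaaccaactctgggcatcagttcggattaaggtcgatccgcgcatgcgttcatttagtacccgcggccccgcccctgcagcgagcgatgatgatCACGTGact
Bcl2l11: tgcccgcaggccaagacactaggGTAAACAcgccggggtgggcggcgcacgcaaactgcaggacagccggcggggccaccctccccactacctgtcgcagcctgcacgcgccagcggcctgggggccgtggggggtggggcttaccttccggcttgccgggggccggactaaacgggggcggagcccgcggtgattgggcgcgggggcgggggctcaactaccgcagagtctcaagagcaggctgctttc
The A1 promoters were the same stretch in 2 copies with annotated starts set apart: 198 of 200 aligned bases were identical. Both held an AP-1 motif, 164 bases before the start in *Bcl2a1b* and 114 in *Bcl2a1d*, and an NFAT core behind it. *Bcl2l1* had an NFAT core 218 bases before the printed start. Of its starts not printed, the most upstream had an NFAT core 168 bases before it and the most downstream held none of the 8 motifs. *Bax* had an E-box 9 bases before its start and another at base 36 counted from the start, beyond the printed stretch. *Bcl2l11* had a forkhead motif 227 bases before its upstream start. The other start of *Bcl2l11*, not printed, held none of the 8 motifs. Among genes not printed, *Bak1* also had an NFAT core, and *Bbc3* had a forkhead motif and an E-box at separate starts. The promoter of *Bcl2*, on chromosome 1, held none of the 8 motifs, and neither did that of *Mcl1*. These matches are letters in a window and not measured binding sites.

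The make-up of the antiapoptotic transcripts differed between the WT libraries: *Bcl2* was lower and *Bcl2l1* and the A1 genes were higher in the stimulated than in the unstimulated WT library. Of the 10 genes, 3 were at least 2-fold higher (*Bcl2l1*, *Bcl2a1d* and *Bax*) and 1 was at least 2-fold lower (*Bcl2*). For comparison, 19.3% of the 13297 genes that reached 10 UMIs in the 2 libraries together were at least 2-fold higher and 23% at least 2-fold lower, with a median log2 ratio of -0.089. The 10 genes stand at counts close to that background, so what follows describes single genes. Unstimulated cells were kept in DPBS while the others were cultured, so stimulation, culture and library cannot be told apart.

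**Figure D1:**
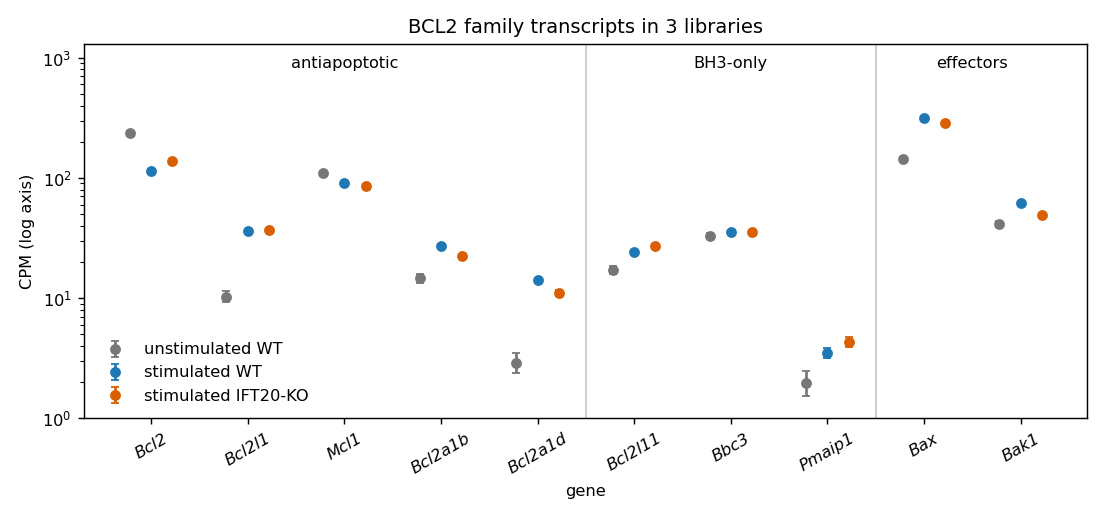
CPM of the 10 genes on a log axis, by library (grey for WT without stimulation, blue for WT and orange for IFT20-KO after it), with exact Poisson intervals (n = 1 library each). *Bcl2* is highest in the unstimulated library, at 237 CPM, while *Bcl2l1*, *Bcl2a1d* and *Bax* are higher in both stimulated libraries. The points are to be read between libraries within a gene.

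*Bcl2*, the guardian of naive T cells, was at 237 CPM (232 to 242) in unstimulated WT cells, 114 CPM (112 to 116) in stimulated WT cells and 137 CPM (135 to 140) in stimulated IFT20-KO cells. The unstimulated library stood above both stimulated ones, and none of the 3 intervals overlapped. The level was 2.08-fold lower with stimulation, a log2 ratio of -1.06 (-1.10 to -1.02, exact binomial interval of the UMIs). Per cell, stimulated cells nevertheless held more *Bcl2*: 1343 UMIs per 1000 cells against 1094, in a library with more UMIs per cell. The lower level was therefore one of its share among all transcripts.

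*Bcl2l1*, which encodes BCL-XL, had 10.3 CPM (9.26 to 11.3) without stimulation, 36.0 CPM (34.9 to 37.1) after stimulation of WT cells and 37.1 CPM (35.9 to 38.3) after stimulation of IFT20-KO cells. It was 3.51-fold higher with stimulation (log2 1.81, 1.66 to 1.96), and its value lay above those of 91.6% of all genes tested. It was found in 4.53% of unstimulated and 24.7% of stimulated WT cells. After every cell had been thinned to 1400 UMIs, which removes the difference in depth, these shares were 1.47% (1.20 to 1.77, exact Clopper-Pearson interval) and 4.92% (4.49 to 5.37). *Cd79a*, a B cell gene that T cells lack, gave UMIs in 0.374% and 0.333% of the cells before thinning, and *Cd79b*, of the same receptor, in 1.05% and 0.616%, the highest shares of 4 B cell markers and a level that stray RNA can reach.

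*Mcl1*, the short-lived antiapoptotic protein's gene, was at 111 CPM (107 to 114), 91.1 CPM (89.4 to 92.9) and 85.7 CPM (84.0 to 87.5) without stimulation, in stimulated WT and in IFT20-KO cells. These levels lay close together, with a log2 ratio of -0.28 (-0.33 to -0.23) for stimulation. Relative to the median of all genes, this difference was -0.19.

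The A1 genes moved alike but by unequal amounts. *Bcl2a1b* was at 14.6 CPM (13.4 to 15.9) without and 27.1 CPM (26.2 to 28.1) with stimulation in WT cells (log2 0.89, 0.76 to 1.03). *Bcl2a1d* was at 2.91 CPM (2.39 to 3.51) and 14.1 CPM (13.4 to 14.8), 4.86-fold higher (log2 2.28, 2.0 to 2.57). Without stimulation, *Bcl2a1d* UMIs were in 1.29% of the cells, against 1.05% for *Cd79b*, and in 0.304% against 0.318% after thinning. Its level there is therefore close to one that stray RNA can reach, and the size of the 4.86-fold difference is uncertain. In stimulated WT cells the shares before thinning were 13.4% and 0.616%. UMIs of *Bcl2a1b* outnumbered those of *Bcl2a1d* 5.02-fold (4.08 to 6.23) in unstimulated cells and 1.92-fold (1.81 to 2.04) in stimulated WT cells. Of their 90-base windows, 263 of 728 (*Bcl2a1b*) and 263 of 774 (*Bcl2a1d*) occurred in the other of the pair. This change in their ratio may therefore depend on how reads from shared windows were counted. It also depends on the low *Bcl2a1d* count without stimulation.

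As a group, the 5 antiapoptotic genes summed to 375 CPM (369 to 381) in unstimulated and 282 CPM (279 to 285) in stimulated WT cells. *Bcl2* made up 63.1% (62.3 to 63.9) of their UMIs without stimulation and 40.3% (39.8 to 40.8) with it. *Bcl2l1* went from 2.74% (2.47 to 3.02) to 12.8% (12.4 to 13.1). *Mcl1* kept a similar share, with 29.5% and 32.3%. In the IFT20-KO library these shares were 46.8% for *Bcl2*, 12.6% for *Bcl2l1* and 29.2% for *Mcl1*. Both stimulated libraries thus had a more even make-up than the unstimulated one.

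**Figure D2:**
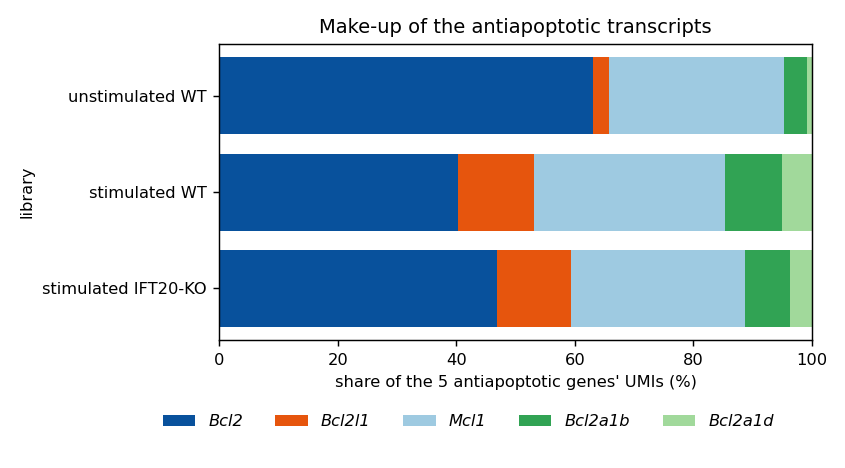
Share of the UMIs of the 5 antiapoptotic genes, in percent, held by each gene in the 3 libraries. The *Bcl2* segment covers 63.1% in unstimulated WT cells, 40.3% in stimulated WT cells and 46.8% in stimulated IFT20-KO cells.

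Among the BH3-only genes, *Bcl2l11*, whose product BIM is a main killer of T cells deprived of cytokine, was at 17.3 CPM (15.9 to 18.6) in unstimulated WT, 24.0 CPM (23.2 to 24.9) in stimulated WT and 27.4 CPM (26.4 to 28.4) in IFT20-KO cells. It was 1.39-fold higher with stimulation (log2 0.48, 0.35 to 0.60). *Bbc3*, a p53 target that encodes PUMA, was at 33.1 CPM (31.3 to 35.0), 35.3 CPM (34.2 to 36.4) and 35.6 CPM (34.4 to 36.7). The interval of its log2 ratio, 0.09, included 0 and reached 0.18 at its upper end. *Pmaip1*, the gene of NOXA, the partner of MCL1, was low throughout, at 1.97 CPM (1.54 to 2.47), 3.48 CPM (3.15 to 3.83) and 4.30 CPM (3.92 to 4.72). Its log2 ratio of 0.82 for stimulation had the wide interval of 0.46 to 1.20. In the unstimulated library *Pmaip1* UMIs were in 0.834% of the cells, below the 1.05% of *Cd79b*, so its level there cannot be told from stray RNA.

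The UMIs of the 5 antiapoptotic genes outnumbered those of the 3 BH3-only genes 7.17-fold (6.83 to 7.52) in unstimulated WT cells, 4.49-fold (4.38 to 4.61) in stimulated WT cells and 4.37-fold (4.25 to 4.48) in IFT20-KO cells. The ratio of *Bcl2* to *Bcl2l11* UMIs went from 13.7 (12.7 to 14.9) to 4.73 (4.54 to 4.92) with stimulation. These are ratios of captured molecules, compared between libraries and not between genes.

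The effectors were both higher with stimulation. *Bax* was at 144 CPM (141 to 148) in unstimulated WT, 318 CPM (315 to 321) in stimulated WT and 286 CPM (283 to 290) in IFT20-KO cells, 2.20-fold higher with stimulation (log2 1.14, 1.10 to 1.18). A *Bax* UMI was seen in 46.7% of unstimulated and 76.4% of stimulated WT cells, and in 18.9% and 31.1% after thinning. *Bak1* was at 41.3 CPM (39.3 to 43.4), 62.1 CPM (60.6 to 63.5) and 49.2 CPM (47.8 to 50.5) in the same order (log2 0.59 for stimulation, 0.51 to 0.67). *Bax* UMIs were 3.49-fold those of *Bak1* in the unstimulated library, 5.12-fold in the stimulated WT library and 5.82-fold in the IFT20-KO library.

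**Figure D3:**
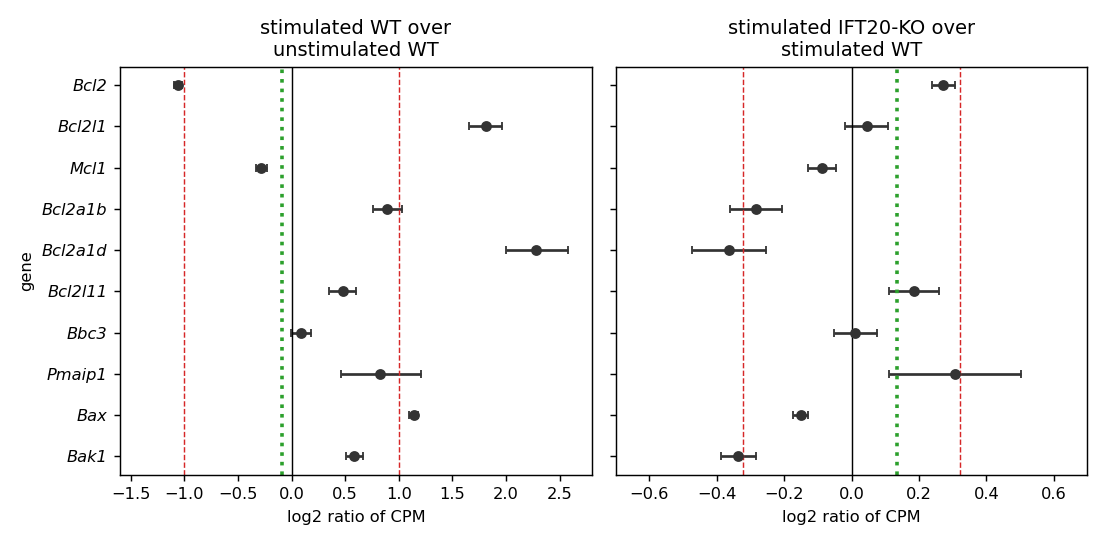
Log2 ratio of CPM for each gene, with exact binomial intervals of the UMIs, for stimulated over unstimulated WT (left) and stimulated IFT20-KO over stimulated WT (right). The solid line marks 0, dashed lines the limits, 2-fold on the left and 0.32 on the right, and dotted lines the median of all genes, -0.089 and 0.14. On the left *Bcl2a1d*, *Bcl2l1* and *Bax* lie past the upper limit and *Bcl2* past the lower one, and on the right only *Bcl2a1d* and *Bak1* lie past a limit.

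The question put to the IFT20-KO library is how stimulated cells differ when *Ift20* is deleted. The differences were smaller than those with stimulation, and none of the 10 genes differed 2-fold, as 3.92% of all genes did upward and 1.67% downward. Past a lower limit of 0.32 on the log2 scale, 0 genes were higher and 2 were lower, *Bcl2a1d* (log2 -0.36, -0.47 to -0.25) and *Bak1* (log2 -0.34, -0.39 to -0.28). The same limit was passed upward by 30.1% and downward by 6.3% of the 13504 genes tested, with a median log2 ratio of 0.14. Under median-ratio scaling, this background became 17.6% higher and 13.1% lower, with a median of -0.03. The 0 and 2 genes above were counted on CPM. Every ratio is lower by the same amount under this scaling, and *Bcl2a1b* then passes the limit downward as well.

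Levels of *Bcl2* (log2 0.27, 0.24 to 0.31), *Pmaip1* (0.31, 0.11 to 0.50) and *Bcl2l11* (0.19, 0.11 to 0.26) were above those of stimulated WT cells, without reaching this limit. *Bcl2a1b* (log2 -0.28, -0.36 to -0.21), *Bax* (-0.15, -0.17 to -0.13) and *Mcl1* (-0.09, -0.13 to -0.05) were below. The intervals of *Bcl2l1* (0.04, -0.02 to 0.11) and *Bbc3* (0.01, -0.05 to 0.08) included 0. Relative to the median of all genes, *Bcl2* was at 0.14 and *Bcl2l11* at 0.05, and the A1 genes and *Bak1* were between -0.50 and -0.42. With 1 library per genotype, the deletion cannot be told apart from any other difference between these cultures.

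The levels of several genes went with the number of UMIs per cell, and the libraries differed in that number. In the stimulated WT library, 23.2% of the cells held under 4000 UMIs, with median mitochondrial shares of 10.0% below 2000 UMIs and 10.7% between 2000 and 4000. In the IFT20-KO library 38.6% of the cells lay between 2000 and 4000 UMIs, against 8.94% in stimulated WT, with a median mitochondrial share of 5.83%. Cells with 8000 or more UMIs had mitochondrial medians of 1.30% or less in both stimulated libraries.

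*Bcl2* made up more of the UMIs of cells with few UMIs. In the stimulated WT library it was at 515 CPM (485 to 547) below 2000 UMIs, 340 CPM between 2000 and 4000, 239 CPM between 4000 and 8000, 121 CPM between 8000 and 16000 and 73.0 CPM (70.8 to 75.3) above. The IFT20-KO library had 274, 309, 225, 106 and 77 CPM in the same ranges, and the unstimulated library 575, 223, 233, 206 and 108 CPM, the last from 14 cells. The level thus stepped down along the whole range in stimulated WT cells and from 2000 UMIs upward in IFT20-KO cells. In unstimulated cells it was lower in the second range than in the lowest, stayed near that level up to 16000 UMIs and was lower again above, at 108 CPM (73.1 to 155) against 206 CPM (192 to 220). *Bcl2l11* was likewise higher below 4000 UMIs than above, with 53.6, 57.2, 23.9, 22.4 and 23.2 CPM in stimulated WT cells.

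*Bax* ran the other way, from 150 CPM (134 to 167) below 2000 UMIs to 365 CPM (360 to 370) above 16000 in stimulated WT cells, while it lay between 106 and 150 CPM in all ranges of unstimulated cells. *Bcl2l1* stayed between 29.0 and 45.1 CPM in every range of both stimulated libraries and between 9.92 and 16.2 CPM in every range of the unstimulated one. Its excess with stimulation was therefore present at every UMI number.

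**Figure D4:**
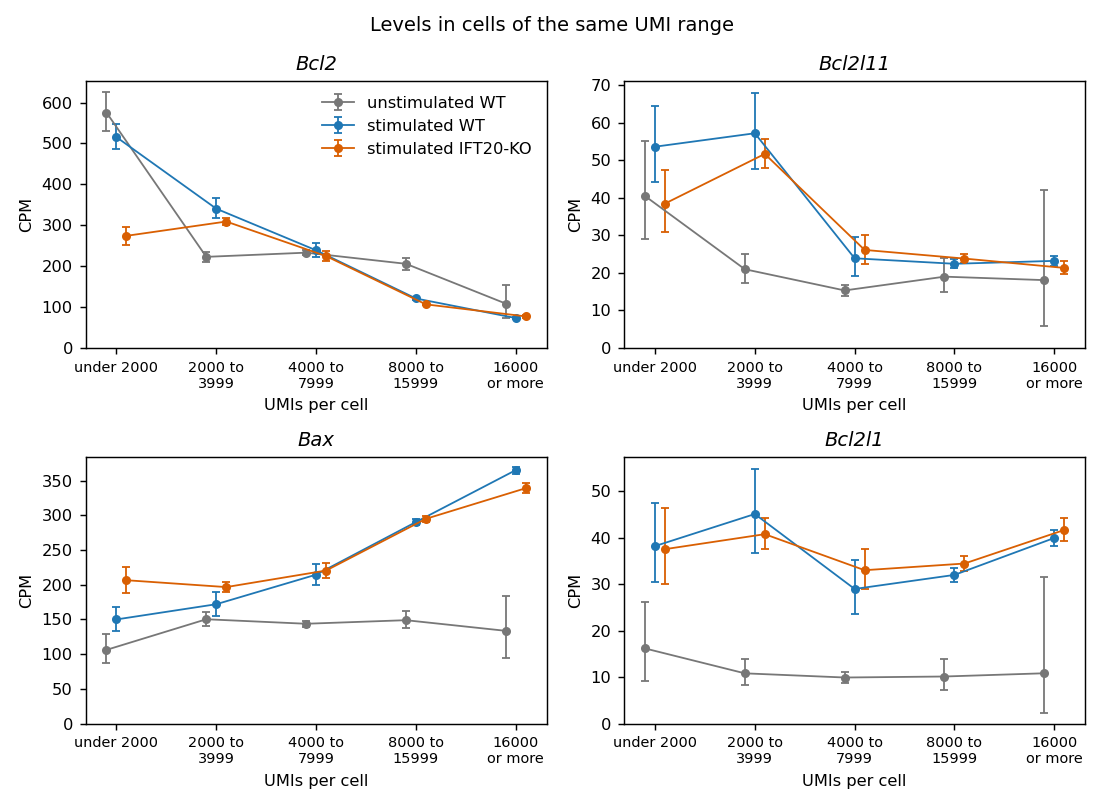
CPM of *Bcl2*, *Bcl2l11*, *Bax* and *Bcl2l1* in cells grouped into the same 5 ranges of UMIs per cell in each library, with exact Poisson intervals. *Bcl2* goes down and *Bax* up with UMIs per cell, over the whole range in stimulated WT and from 2000 UMIs upward in IFT20-KO, and the stimulated WT and IFT20-KO points lie close together from 4000 UMIs upward.

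Comparing cells within the same range changed what the IFT20-KO library showed. The difference in *Bcl2* was -0.91 (-1.06 to -0.77) below 2000 UMIs, -0.14 (-0.25 to -0.03) between 2000 and 4000, -0.09 (-0.21 to 0.03) between 4000 and 8000, -0.18 (-0.23 to -0.13) between 8000 and 16000 and 0.08 (-0.00024 to 0.15) above. In no range did it reach the pooled value of 0.27. Below 2000 UMIs the 2 libraries held unlike cells, with mitochondrial medians of 4.75% in IFT20-KO and 10.0% in stimulated WT. No IFT20-KO barcode had fewer than 1493 UMIs, while those of stimulated WT reached down to 709. Over all cells with 4000 or more UMIs the difference in *Bcl2* was 0.07, and those of *Bcl2l11* and *Pmaip1* were 0.03 and 0.15. *Bak1* kept its lower level, with -0.43 (-0.69 to -0.16), -0.27 (-0.35 to -0.20) and -0.28 (-0.37 to -0.19) in the 3 ranges from 4000 UMIs upward, but was at 0.02 and 0.01 in the 2 ranges below. *Bcl2a1d* was at -0.32 (-0.98 to 0.35), -0.31 (-0.46 to -0.16) and -0.20 (-0.38 to -0.01) in the upper ranges, and *Bcl2a1b* at -0.17, -0.17 and -0.25. In the 2 ranges below, from few UMIs, *Bcl2a1d* was at 0.66 (-0.36 to 1.73) and 0.86 (-0.18 to 2.11) and *Bcl2a1b* at 0.51 (-0.23 to 1.27) and -0.02 (-0.57 to 0.56), so the sign of *Bcl2a1d* turned while these intervals included 0. None of the 10 genes passed 0.32 in either direction in cells with 4000 or more UMIs, where 15.9% of all genes were past it upward and 7.63% downward.

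With stimulation, the same comparison left *Bcl2* 0.61 (0.48 to 0.74) higher between 2000 and 4000 UMIs. The 2 libraries held unlike cells there, with mitochondrial medians of 10.7% with and 2.29% without stimulation. *Bcl2* was level at 0.04 (-0.07 to 0.14) between 4000 and 8000, and 0.77 lower (log2 -0.77, -0.87 to -0.66) between 8000 and 16000. Its log2 ratio was -0.16 (-0.31 to -0.01) below 2000 UMIs and -0.57 (-1.09 to 0.00026) above 16000, with 14 unstimulated cells in the latter. The unstimulated cells lay mostly between 4000 and 8000 UMIs, where 62.0% of them were found, and the stimulated WT cells mostly above 8000, with 45.1% up to 16000 and 26.2% beyond. The pooled difference in *Bcl2* and the gain in UMIs per cell cannot be told apart. From the lowest range to the highest, *Bax* was at 0.50 (0.18 to 0.83), 0.19 (0.02 to 0.37), 0.58 (0.46 to 0.69), 0.96 (0.84 to 1.09) and 1.45 (0.99 to 1.96). In the same order, *Bcl2a1d* was at 1.69 (-0.43 to 4.87), 0.47 (-0.97 to 1.80), 1.66 (1.02 to 2.26), 2.47 (1.58 to 3.53) and 0.46 (-1.09 to 2.74). *Bcl2a1b* was at -0.36 (-1.31 to 0.63), -0.19 (-0.82 to 0.40), 0.47 (0.07 to 0.85), 0.84 (0.47 to 1.24) and -0.61 (-1.42 to 0.34). The intervals of the A1 genes lay above 0 only between 4000 and 16000 UMIs.

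Levels also differed with the state of the cells. Cells that were not low in UMIs (a count below 1/3 of their library's median) were ranked by the share of their UMIs from 8 markers of activation (*Cd69*, *Il2ra*, *Il2*, *Nr4a1*, *Myc*, *Tnfrsf4*, *Tnfrsf9* and *Irf4*) or from 7 markers of naive cells (*Klf2*, *Il7r*, *Ccr7*, *S1pr1*, *Tcf7*, *Lef1* and *Satb1*), and cut into quartiles. Quartiles are ranges of cells and not cell types. In the stimulated WT library, *Bcl2l1* was at 17.9 CPM in the quartile with the lowest activation share and at 64.2 CPM in the highest (log2 1.84, 1.70 to 2.0). *Bcl2a1d* (8.94 and 21.5 CPM) and *Bcl2a1b* (19.4 and 35.2 CPM) were higher there as well. *Bbc3* was lower, at 45 and 26.6 CPM (log2 -0.76, -0.89 to -0.63), and so was *Bcl2l11*, at 29.0 and 19.4 CPM. *Mcl1* (94.3 and 95.8 CPM) and *Bak1* (61.9 and 62.3 CPM) had log2 ratios whose intervals included 0. In the IFT20-KO library the ratio was 1.66 (1.53 to 1.80) for *Bcl2l1* and -0.65 (-0.81 to -0.50) for *Bbc3*. *Bcl2l11* was not lower in that library, at 28.1 and 30.4 CPM. *Bcl2* and *Bax* ran in opposite directions in the 2 libraries. *Bcl2* was at 119 and 93.1 CPM in stimulated WT and 132 and 160 CPM in IFT20-KO, and *Bax* at 293 and 330 CPM and 286 and 255 CPM. The cut for low UMIs lay at 4056 UMIs in stimulated WT and at 1671.5 in IFT20-KO, and left out 23.2% and 3.34% of the cells. The quartiles of the 2 libraries therefore hold unlike cells. In IFT20-KO the highest activation quartile had a median of 2806 UMIs and a mitochondrial median of 4.73%, so depth moved with it.

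Along the naive share of stimulated WT cells, *Bcl2*, *Bcl2l1* and *Mcl1* were higher and the A1 genes lower. *Ccr7* gave 62211 of the 120373 UMIs of the 7 naive markers in that library and *Il7r* 638, so the share ranks cells largely by *Ccr7*. In stimulated WT cells *Bcl2* was at 61.4 CPM in the lowest and 179 CPM in the highest naive quartile (log2 1.54, 1.46 to 1.62), and *Mcl1* at 81.1 and 108 CPM. *Bcl2l1* was at 31.9 and 45.6 CPM (log2 0.52, 0.39 to 0.64), so that it was higher in the top quartile of either share. *Bcl2a1b* was at 35.8 and 14.4 CPM (log2 -1.31, -1.49 to -1.14) and *Bcl2a1d* at 19.1 and 8.31 CPM. *Bcl2* and the A1 genes thus ran in opposite directions within 1 library. *Bcl2l11* went with *Bcl2*, at 16.9 and 31.2 CPM (log2 0.88, 0.72 to 1.05). The median cell of the lowest naive quartile held 15051 UMIs against 11723 in the highest. In unstimulated WT cells the same contrast gave 0.38 (0.30 to 0.47) for *Bcl2* and -0.89 (-1.27 to -0.51) for *Bcl2a1b*, and there *Bbc3* was at 25.8 CPM in the lowest and 48.8 CPM in the highest naive quartile (log2 0.92, 0.69 to 1.16). *Bcl2l1* was at 8.12 CPM in the highest naive quartile of unstimulated cells, from 67 UMIs, against 10.2 CPM over all those not low in UMIs.

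**Figure D5:**
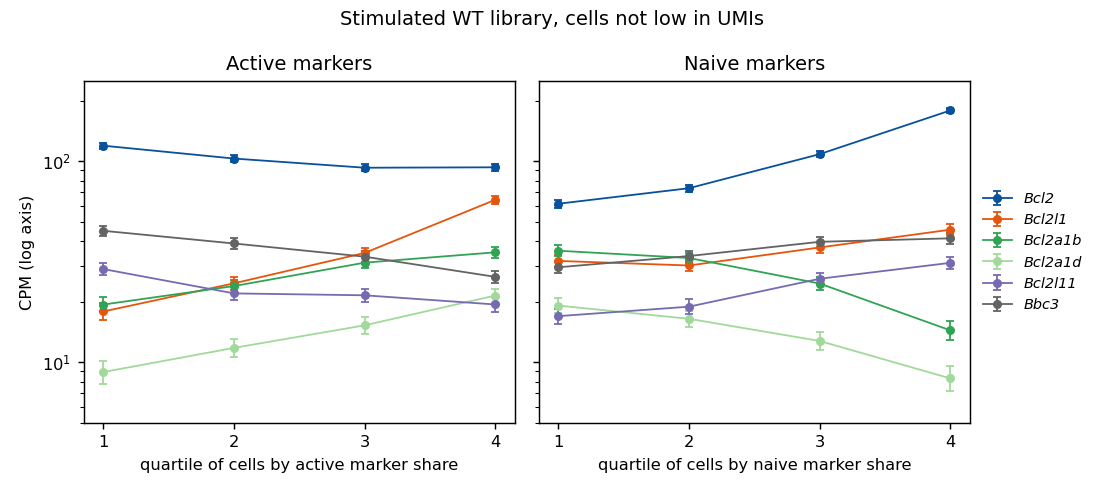
CPM (log axis, exact Poisson intervals) of 6 genes in stimulated WT cells, by quartile of the share of UMIs from 8 activation markers (left) and 7 naive markers (right). *Bcl2l1* goes from 17.9 to 64.2 CPM along the activation share and *Bcl2* from 61.4 to 179 CPM along the naive share, while *Bcl2a1b* goes down along the naive share.

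Cells with at least 1 UMI of *Il2*, the growth factor made by freshly activated T cells, numbered 1631 in the stimulated WT and 1901 in the IFT20-KO library. *Bcl2* was lower in them than in the other cells, at 73.0 against 125 CPM in WT (log2 -0.77, -0.84 to -0.70) and 90.5 against 147 CPM in IFT20-KO (-0.70, -0.78 to -0.63). *Bcl2l1* was higher, at 51.1 against 31.9 CPM and 54.3 against 33.4 CPM. *Bcl2l11* was lower, with log2 ratios of -0.61 and -0.41, and *Bcl2a1d* higher, with 0.64 and 0.61. These cells also held more UMIs, with medians of 15481 against 11584 in WT and 9953 against 4144 in IFT20-KO.

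Cells with a UMI of *Foxp3*, the factor that defines regulatory T cells, numbered 343 without stimulation, 176 in stimulated WT and 318 in IFT20-KO. *Bcl2l1* was higher in them than in the other cells, at 17.4 against 9.93 CPM in unstimulated WT (log2 0.81, 0.21 to 1.35), 88.5 against 34.9 CPM in stimulated WT (1.34, 1.13 to 1.55) and 58.1 against 36.5 CPM in IFT20-KO (0.67, 0.44 to 0.89). *Bcl2* was also higher, with log2 ratios of 0.34, 0.81 and 0.56. In unstimulated cells *Pmaip1* had 11 UMIs in *Foxp3* cells, 6.58 CPM against 1.75 CPM (log2 1.91, 0.84 to 2.85). Cells with both *Mki67* and *Top2a*, genes of dividing cells, numbered 334 in stimulated WT and 671 in IFT20-KO. They were compared with the 7701 and 9818 cells that held neither gene, and cells with only 1 of them were left out. In the WT library *Pmaip1* was at 5.68 CPM in cells with both, from 32 UMIs, against 3.33 CPM in cells with neither (log2 0.77, 0.20 to 1.30). There *Bcl2l1* was 0.35 higher (0.16 to 0.54), *Bcl2* 0.29 higher (0.18 to 0.40) and *Bax* 0.20 lower (log2 -0.20, -0.27 to -0.12). In IFT20-KO *Bcl2* was 0.22 higher (0.13 to 0.31) and *Bax* at -0.18 (-0.25 to -0.11), while the intervals of *Pmaip1* and *Bcl2l1* included 0. Cells with both genes and cells with neither were not matched for UMIs per cell, with which *Bcl2* and *Bax* moved in the ranges above.

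In the median pair, detection of 1 gene in a cell told little about the other. Over the pairs of the 10 genes with at least 5 cells expected to hold both, in cells thinned to 1400 UMIs and not low in UMIs, the median odds ratio of joint detection was 1.01 in unstimulated WT, 0.96 in stimulated WT and 1.02 in IFT20-KO cells. Single pairs ran from 0.42 to 1.40, from 0.72 to 1.93 and from 0.62 to 1.42 in the same order. The pair of *Bbc3* and *Bax* had odds ratios of 1.30, 1.86 and 1.22. These values describe sparse counts that share a library and carry no test.

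Around these genes, 70 further genes of the death pathway were followed, of which 64 passed the minimum of 10 UMIs for stimulation. Of these, 13 (20.3%) were at least 2-fold higher and 9 (14.1%) at least 2-fold lower, against 19.3% and 23% of all genes. Their median log2 ratio was -0.07 against -0.089 for all genes. The upward share is close to that of all genes, so what follows describes single genes, and counts within lists are to be read beside these shares. Among caspases and their partners, 3 of 13 were higher and 1 lower. *Vdac1*, a channel of the mitochondrial outer membrane, was at 89.3 CPM without and 238 CPM with stimulation (log2 1.41, 1.36 to 1.47), *Cycs*, cytochrome c, at 185 and 446 CPM, and *Casp9*, the initiator caspase that works with cytochrome c, at 5.39 and 2.04 CPM (log2 -1.40, -1.68 to -1.12). *Apaf1*, the apoptosome scaffold, was at 8.48 and 6.78 CPM. Among 11 other BCL2 relatives, 2 were higher and 1 lower, and *Bnip3*, a mitophagy receptor, was at 5.87 and 33.7 CPM. Its relative *Bnip3l* was at 190 and 151 CPM, the lowest log2 ratio (-0.33) among those with 200 or more UMIs. The BH3-only genes *Bid* (12.6 and 21.5 CPM) and *Bad* (20.3 and 18.6 CPM) did not reach 2-fold, and *Bmf* had 9 and 4 UMIs.

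Of 5 inhibitors of apoptosis, *Birc5* (survivin, which also acts in cell division) was 2.25 higher on the log2 scale and *Birc2* was at -1.49. Of 14 genes in a list of the death receptor pathway, which also holds ligands, a caspase and costimulatory receptors, 3 were higher and 3 lower. *Tnfrsf9* was at 11.4 and 195 CPM and *Tnfrsf4* at 23.0 and 361 CPM, both costimulatory receptors that were also among the activation markers. *Tnfsf10*, the death ligand TRAIL, was at 5.41 and 1.67 CPM (log2 -1.70, -1.99 to -1.41). *Casp8*, the initiator caspase of death receptors, was at 128 and 55.6 CPM, *Fas* at 28.9 and 28.6 CPM, *Fasl* at 13.2 and 11.8 CPM and *Cflar*, an inhibitor of CASP8, at 83.5 and 60.7 CPM. *Dynll2*, a dynein light chain that holds the BH3-only protein BMF, was at 41.4 and 174 CPM, the 1 gene of 7 in its list on protein turnover and anchoring past 2-fold, and *Bag6* was lowest there, at 73.1 and 52.8 CPM. Of 14 upstream regulators, 3 were higher and 3 lower: *Il2ra* was at 15 and 185 CPM, *Il7r*, the receptor for the cytokine that maintains BCL2, at 476 and 5.45 CPM (log2 -6.45, -6.56 to -6.33), and *Foxo1*, a forkhead factor, at 297 and 64.3 CPM.

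In the IFT20-KO comparison 65 of the 70 genes passed the minimum, with a median of 0.08 against 0.14 for all genes. Of these, 14 (21.5%) were past 0.32 upward and 4 (6.15%) downward, against 30.1% and 6.3% of all genes. The listed genes thus passed the limit upward less often than all genes did, and single genes are described below. The genes above the limit included *Tnfsf10* (1.67 and 3.22 CPM in WT and IFT20-KO, log2 0.95, 0.69 to 1.21), *Apaf1* (6.78 and 10.3 CPM, log2 0.61, 0.48 to 0.74), *Huwe1*, a ubiquitin ligase of MCL1 (43.6 and 68.1 CPM), *Birc6* (90.1 and 125 CPM) and *Rel* (56.8 and 80.7 CPM), a kappaB factor. *Cycs* was lower, at 446 and 345 CPM (log2 -0.37, -0.39 to -0.35), and so was the BH3-only gene *Bik*, at 3.62 and 2.61 CPM (log2 -0.47, -0.70 to -0.25). Without reaching the limit, *Bad* (0.23), *Birc5* (0.29), *Birc3* (0.08) and *Fasl* (0.04) had log2 ratios above 0, and *Bid* (-0.27), *Atf4* (-0.27), *Tnfrsf4* (-0.15) and *Fbxw7* (-0.11) below it. *Bmf* had 4 and 12 UMIs. *Casp8*, *Fas* and *Cflar* had log2 ratios between -0.01 and 0.01. In cells with 4000 or more UMIs, 4 of the listed genes were higher and 3 lower, beside the 15.9% and 7.63% of all genes given above.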

How the data were processed

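Single-cell RNA was measured in 3 libraries of sorted splenic CD4+ T cells. The authors aligned the reads and deposited UMI counts per gene and barcode without normalization, from Cell Ranger 3.1.0 on mm10 per the file headers and the labels. The methods name a 3′ kit and the labels a 5′ kit, which read opposite transcript ends. Barcodes had to have over 200 genes and less than 15% mitochondrial UMIs, UMIs were summed per library, and CPM, log2 ratios, exact intervals (95%, counting error only) and shares of cells were calculated with numpy 2.4.6, pandas 2.3.3 and scipy 1.17.1 under Python 3.11.15. No doublets were removed. Genes that reached 10 UMIs in a pair of libraries were compared, and a value of 0 was set to 3 counts. With 1 library per group no test was made: a gene counted as higher or lower past 2-fold for stimulation and a log2 ratio of 0.32 for IFT20-KO. All 10 genes were named, as were the highest and lowest log2 ratio among genes with at least 200 UMIs in each of 6 pathway lists and 8 set genes (*Bid*, *Bad*, *Bmf*, *Apaf1*, *Birc5*, *Fas*, *Fasl* and *Cflar*), with a few further list genes named after their values were seen. The members and lists were chosen with earlier results of these data known, 2 listed genes are not reported here and were left out of their lists, and the UMI ranges were chosen after seeing these data. Tested on simulated data, the intervals held the true ratio of 96.5% of 200 changed genes for stimulation (13324 genes in all) and 99% of 200 for IFT20-KO (13511 in all). The simulated counts had Poisson counting error only, as the intervals assume, with no variation between cells, mice or libraries. The simulation therefore checks the calculation and not how such intervals hold between libraries. The alternatives were median-ratio scaling, mean per-cell fractions, UMIs per cell, all barcodes, a filter of 1000 genes and 10% mitochondrial UMIs, no low-UMI cells, thinning to 1400 UMIs, minimums of 200 and 1 UMIs and, added later, cells with 4000 or more UMIs.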

Additional observations from a re-analysis of the deposited data

How the results depend on the processing

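No paired analysis was possible because each group is 1 library. Leaving out a replicate was likewise not possible. Under the 10 alternatives, 7 of the 10 genes kept the sign of their log2 ratio for stimulation in all of them, and 5 of 10 for IFT20-KO. *Bcl2*, the 1 gene at least 2-fold lower with stimulation, was lower by less than 2-fold under thinning, median-ratio scaling and means of per-cell fractions, which left 0 such genes, and was 0.30 higher as UMIs per cell, which also left 0. Of the genes at least 2-fold higher, *Bax* fell below 2-fold with thinning, at a log2 ratio of 0.93. *Bcl2l1* and *Bcl2a1d* stayed past 2-fold, with lowest values of 1.75 and 2.15. Under median-ratio scaling *Bcl2a1b* was past 2-fold upward as well. As UMIs per cell, 9 genes were higher with stimulation and 9 lower in IFT20-KO, where the median of all genes moved to 1.26 and -0.49 and 58.5% of all genes were higher and 68.5% lower, respectively. For IFT20-KO, the genes past 0.32 upward (0 in the report) numbered 1 with the mean of per-cell fractions and 2 with the stricter filter, without low-UMI cells and with thinning, where 30.8%, 34.5%, 37.5% and 33.3% of all genes were past it. Those lower (2 in the report) numbered 1 with thinning and 0 in cells with 4000 or more UMIs, where 6.37% and 7.63% of all genes were. Under median-ratio scaling *Bcl2a1b* was past the limit downward as well, beside 13.1% of all genes. Of the other pathway genes, as UMIs per cell 44 were higher and 2 lower with stimulation (13 and 9 in the report), and 2 were higher and 50 lower in IFT20-KO (14 and 4). Median-ratio scaling gave 6 higher and 8 lower in IFT20-KO, and cells with 4000 or more UMIs gave 4 higher. Depth limits *Pmaip1* most, with 73 UMIs in the unstimulated library.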
